A study of Mus musculus with 24 samples.

Results

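The Wnt ligands, their receptors and their secreted antagonists were followed in mouse primary osteoblasts (OBs) from parietal bone that carried the G610C mutation or did not. Members were taken by gene symbol, as every gene named as a Wnt, a Frizzled, an Lrp4, Lrp5 or Lrp6 co-receptor, an R-spondin or its Lgr receptor, a Dkk or Sfrp antagonist, Wif1, Notum, Axin2, Lef1 or Tcf7, which gave 52 of the 55335 genes in each file. They comprise 19 Wnt ligands, 10 Frizzled receptors, 3 LRP co-receptors, 4 R-spondins, 3 Lgr receptors, 4 Dkk and 4 Sfrp antagonists, Wif1, Notum and 3 transcription factors or feedback genes. The rule used no measured value.

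Wnt proteins are secreted lipid-modified ligands that bind a Frizzled receptor together with LRP5 or LRP6, which stabilises beta-catenin and lets it act with TCF/LEF factors on target genes such as Axin2. Dkk proteins and sclerostin block the LRP co-receptors, Sfrp proteins and Wif1 bind the ligands, Notum removes their lipid, and R-spondins acting through Lgr receptors keep Frizzled and LRP at the cell surface. In bone the pathway drives osteoblast formation, and loss or gain of LRP5 function is known for low or high bone mass.

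WT and Het G610C OBs were cultured in osteogenic medium, and RNA was sequenced at days 8, 14 and 21, which gave 24 libraries, 4 for each genotype at each day. G610C replaces a glycine of the alpha2(I) chain of type I procollagen by cysteine, and Het cells carried 1 mutant and 1 normal copy of Col1a2. Cells of each genotype were pooled from several pups, so a library is a culture well and not an animal, and p-values measure the spread between these cultures. Wells of an experiment, at all days, shared the cell preparation of their genotype. Within an experiment, genotype and pool of pups therefore cannot be told apart, and the main tests treat the wells as independent. The gene counts do not show the substitution itself, so the genotype labels could not be checked against it.

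Each library held 17140202 to 59734231 counts assigned to genes. The 6 libraries numbered replicate 1 were the shallower ones, at 17140202 to 25825762, against 28159342 to 59734231 in the 18 libraries of replicates 2 to 4. The study describes 2 experiments with different oxygen levels, litters and plating densities, and the labels do not say which replicate belongs to which, although the deposited columns of replicate 1 are named on another pattern than the rest. Its methods give 1 well of each genotype and day in the first experiment and 2 in the second. That is fewer than the 4 libraries of each genotype and day held here, so the described layout does not account for all of them. Replicate 1 also stood apart in its sums of cell type markers, given next, so each comparison of Het with WT is given with all 4 replicates and without replicate 1. Levels are relative quantities (RQ), here 1000 times the count of a gene over the geometric mean of the counts of Sdha, Mrfap1, Actb and Actg1 in that library. Gene coordinates are those of GENCODE M21 on GRCm38. Values listed for a group run from replicate 1 to replicate 4, and the replicate numbers carry no order. A gene was called when its adjusted p in edgeR's quasi-likelihood test, corrected by Benjamini-Hochberg over all genes tested, was under 0.05.

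All 8 osteoblast markers examined, among them Col1a1, Ibsp and Bglap, were called higher at days 14 and 21 than at day 8, and no marker of the osteoblast, chondrocyte or macrophage lists was at 0 in every library. In replicates 2 to 4 the summed RQ of these osteoblast markers at day 14 was 158207 to 186784 in WT and 109390 to 133672 in Het. In replicate 1 it was 106151 in WT and 100038 in Het. Other cell types were also present and differed between genotypes in replicates 2 to 4. The summed RQ of 6 chondrocyte markers, which include Acan, Col2a1 and Sox9, was 6368 to 13325 in WT and 1422 to 2588 in Het at day 14, against 22302 and 23246 in replicate 1. The summed RQ of 12 macrophage markers, which include Cd68, Adgre1 and Csf1r, was 1544 to 2635 in WT and 7291 to 7895 in Het at day 14, against 4968 and 3431 in replicate 1. In these bulk samples fewer cells of a type and less RNA per cell cannot be told apart, and the part of these cell types in the results that follow was not tested.

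**Figure D1:**
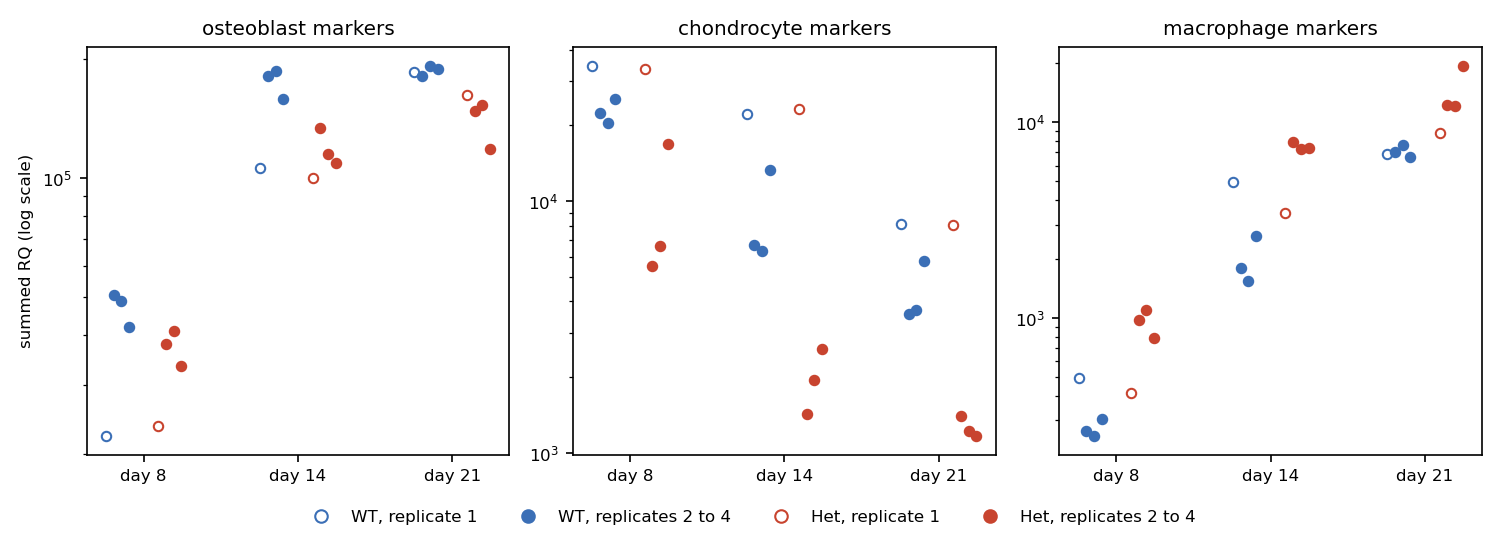
Summed RQ (log scale) of the osteoblast, chondrocyte and macrophage marker lists in each library by day. Blue is WT and red is Het, open circles are replicate 1 and filled circles replicates 2 to 4. In replicates 2 to 4 the osteoblast and chondrocyte sums of Het lie below those of WT and the macrophage sums above them at each of the 3 days, while the open circles of the genotypes lie closer to each other.

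Most of the family was present in OBs, at levels that spanned several orders of magnitude. Of the 52 members, 36 averaged at least 50 counts per library and 10 averaged under 5. Dkk4, Wnt3a and Wnt9b had no count in any of the 24 libraries, which over all libraries together allows an RQ of up to 0.00573 (3 counts of 1027057570, counting error only). Wnt1, Wnt3, Wnt7a, Wnt8a, Wnt8b, Rspo4 and Sfrp5 were the other members with a mean under 5 counts, and they are not compared here.

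Levels between genes are compared as RQ per kb of the length given for each gene in the files, which need not be that of a single transcript. At days 14 and 21 the 3 highest members were secreted antagonists, Dkk3, Sfrp2 and Wif1. Dkk3, a divergent Dkk that binds LRP poorly, stood at 236 per kb, Sfrp2 at 141, Wif1 at 96.8 and Dkk1 at 45.3, all as means over 16 libraries. Exons of Gm26771 overlap Sfrp2 on the other strand, with 31274 counts in all against 155474 for Sfrp2, and the strand setting of the counting is not given. Among ligands Wnt10b, a bone-forming Wnt, had 22.7 per kb, Wnt5b 13.1 and Wnt5a 8.16, both of the group that signals largely without beta-catenin, and every other ligand was at or under 2.27 (Wnt9a). Among receptors Fzd1 led with 48.7 per kb, followed by Fzd2 with 26.2, Fzd7 with 25.4 and Fzd5 with 21.5. The LRP co-receptors lay close together, with Lrp4 at 28.7, Lrp5 at 21.1 and Lrp6 at 16.9 per kb, and their ranges over libraries overlapped. At day 8 the order differed for several members, and Dkk1 had 1.24 per kb and stood far below Wif1, at 15.02.

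The 19 ligand genes include 4 pairs of neighbours on a chromosome in GRCm38. Wnt10b lies 11.7 kb from Wnt1 on chromosome 15, and Wnt1 had no count in 19 of 24 libraries against at least 147 counts of Wnt10b in each. Wnt9a lies 16.2 kb from Wnt3a on chromosome 11, and had at least 28 counts in each library where Wnt3a had none. Wnt9b and Wnt3, 24.3 kb apart on chromosome 11, were both at or near 0, with 0 and 4 counts over all libraries. Wnt6 and Wnt10a, 6.19 kb apart on chromosome 1, were both low, with means of 44.4 and 13.9 counts per library.

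**Figure D2:**
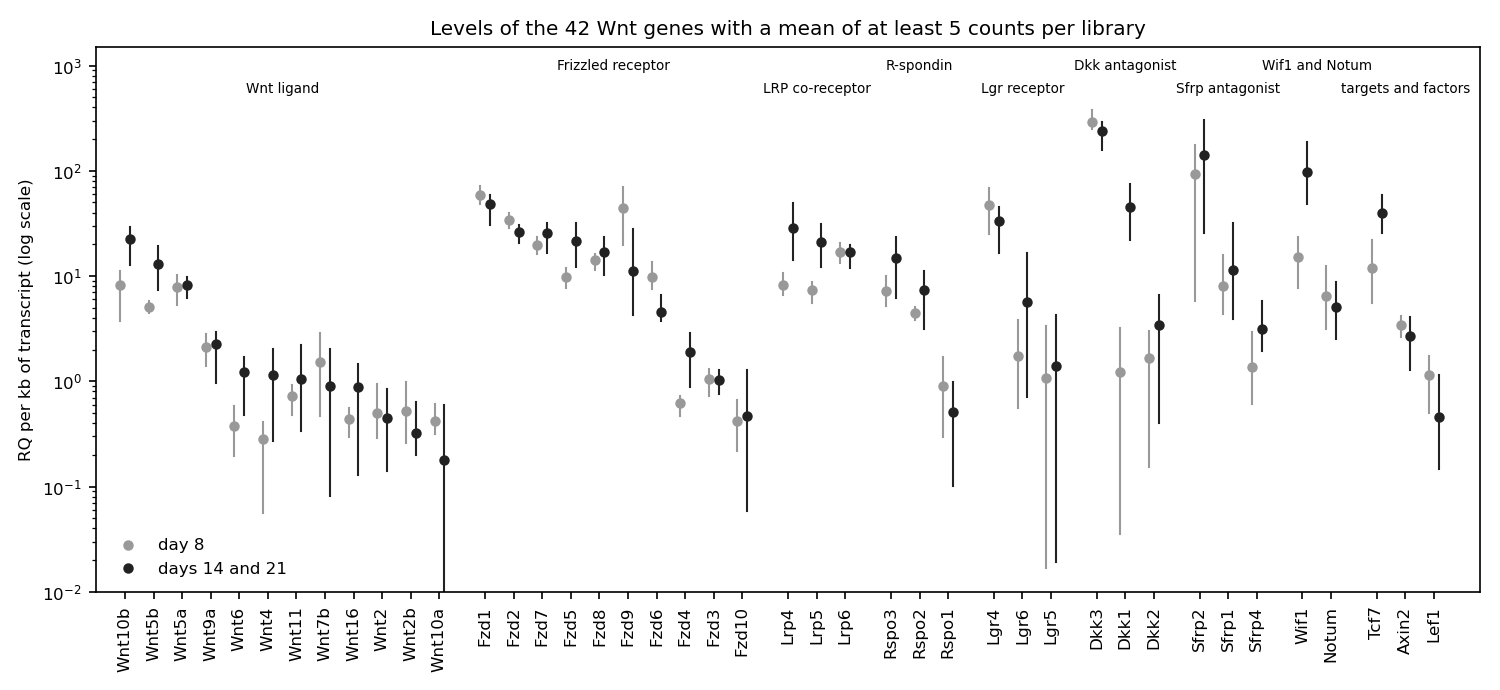
RQ per kb of the length given for each gene (log scale, labelled per kb of transcript on the axis) of the 42 members with a mean of at least 5 counts per library, by role. Points are means over the 8 libraries of day 8 (grey) or the 16 of days 14 and 21 (black), and lines run from the lowest to the highest library, with Wnt10a at 0 in 1 library. Dkk3, Sfrp2 and Wif1 stand highest at days 14 and 21, and Dkk1 shows the widest step between stages.

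TCF/LEF-type letters were looked for in the bases before each RefSeq start of the genes, since some members are themselves targets of the pathway. RefSeq promoters of GRCm38.p6 were held for 33 of the 52 members. The 7-letter words CTTTGAA with its variant CTTTGAT, then CTTTGTA with its variant CTTTGTT, on either strand within 250 bases before the start, were found for 5 of the 33 (15.2%), Dkk1, Fzd7, Lef1, Wnt11 and Wnt5b, and for 16.8% of all 27025 gene symbols with a promoter. Dkk1 and Lef1 are shown because they had the largest rise and the second largest fall with culture time among members called, and Fzd7 because it was lower in Het; capitals mark the words, and each stretch runs 5′ to 3′ on the strand of the gene.
Dkk1, chr19:30549558-30549643, minus strand: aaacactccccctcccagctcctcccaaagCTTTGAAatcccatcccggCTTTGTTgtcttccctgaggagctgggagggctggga
Lef1, chr3:131156117-131156183, plus strand: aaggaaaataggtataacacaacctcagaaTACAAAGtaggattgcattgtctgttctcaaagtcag
Fzd7, chr1:59481987-59482053, plus strand: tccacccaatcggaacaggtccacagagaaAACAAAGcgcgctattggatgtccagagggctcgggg
Dkk1 held 2 of the words, at 117 and 98 bases before its RefSeq start. That stretch lies within the gene as GENCODE M21 places it (chr19:30545863-30549665), so the words are not upstream of the GENCODE start. The single word of Lef1 stood 147 bases before an internal start, 1 of its 4 RefSeq starts, within the gene, and that of Fzd7 130 bases before its start. A match of letters is a description and not a binding site, and binding was not measured.

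Culture from day 8 to days 14 and 21 changed most of the family. Of 43 members tested, 19 were called higher at days 14 and 21 (44.2%, against 40.9% of all 20434 genes tested) and 12 lower (27.9%, against 17.4% of all genes). The median member changed by 0.36 on the log2 scale and the median gene by 0.16. That shift of all genes depends on the scaling, since it was -0.021 with trimmed-mean (TMM) scaling and -0.14 with total counts. With TMM 17 members were called higher (39.5%, against 27.4% of all genes) and 14 lower (32.6%, against 32.8%), and with total counts 16 higher (37.2%, against 21.4%) and 16 lower (37.2%, against 43.4%), so whether the share of members called exceeds that of all genes among rises or among falls depends on the scale. Over the same step 12 of 12 macrophage markers were called higher and 5 of 6 chondrocyte markers lower. Of the 31 calls of members, 22 held whichever replicate was left out. The others were Dkk2, Fzd8 and Lgr6 among the rises and Axin2, Fzd1, Lgr4, Rspo1, Wnt2b and Wnt7b among the falls, and leaving out replicate 4 lost 7 of them (18 members were then higher, against 33.5% of all genes, and 6 lower, against 13%).

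The largest rises among members with at least 50 counts per library were those of antagonists, Dkk1 and Wif1. Dkk1 (ENSMUSG00000024868.8, chr19:30545863-30549665), which blocks LRP5 and LRP6, had 0.0857, 7.31, 7.87 and 4.69 RQ in WT against 0.142, 1.45, 1.47 and 1.00 in Het at day 8. At day 14 it had 54.3, 152, 182 and 122 in WT against 53.2, 156, 87.6 and 84.1 in Het, and at day 21 it had 108, 138, 135 and 124 in WT against 86.6, 92.9, 108 and 75.5 in Het. No library of day 8 reached the lowest later library, and the change was the largest of the family (log2 fold change 5.48, SE 0.37, adjusted p = 4.08e-11). Wif1 (ENSMUSG00000020218.11, chr10:121033960-121100650) rose from a median RQ of 41.6 (range 18.9 to 56.4) over the 8 libraries of day 8 to a median RQ of 229 (range 117 to 457) over the 16 later ones, again without overlap (log2 fold change 2.68, SE 0.18, adjusted p = 5.08e-11). Sfrp4, an Sfrp known for its role in cortical bone, went from a median RQ of 4.63 (range 2.56 to 12.2) to a median RQ of 11.9 (range 8.06 to 24.1), and the stages overlapped (log2 fold change 1.21, SE 0.26, adjusted p = 0.000441). Dkk2 was called higher as well (log2 fold change 1.01, SE 0.41, adjusted p = 0.0384), but not with TMM (adjusted p = 0.113), DESeq2 size factors (adjusted p = 0.0936) or total counts (adjusted p = 0.15). Sfrp2, whose log2 fold change was 0.60 with adjusted p = 0.293, passed as higher with the replicate number as a block (adjusted p = 0.035). With that block, 21 members were called higher (44.7% of all genes) and 13 lower (19.4%), the others added being Wnt11 and Notum, and Notum was then at -0.27 (adjusted p = 0.0485, against 0.297 without the block). Dkk3 was the antagonist called lower, from a median RQ of 962 (range 836 to 1260.2) to a median RQ of 797 (range 527 to 982) (log2 fold change -0.32, SE 0.082, adjusted p = 0.00213).

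Among ligands, Wnt4, Wnt6, Wnt10b, Wnt5b and Wnt16 were called higher and Wnt10a, Wnt7b and Wnt2b lower. Wnt4 (ENSMUSG00000036856.4, chr4:137277489-137299726) had a median RQ of 1.42 (range 0.236 to 1.71) at day 8 and a median RQ of 4.99 (range 1.13 to 8.41) later (log2 fold change 2.03, SE 0.34, adjusted p = 2.64e-05). Wnt10b (ENSMUSG00000022996.15, chr15:98770712-98778150) had a median RQ of 31.8 (range 12.6 to 38.3) and a median RQ of 78.6 (range 42.8 to 99.9) (log2 fold change 1.44, SE 0.19, adjusted p = 9.78e-07). Each of these ligands rose under the 4 scalings examined, the Wnt10b stages did not overlap, and the Wnt4 stages overlapped through 2 Het libraries of day 14. Wnt5b rose by 1.33 ± 0.11 (log2, SE) and Wnt6 by 1.71 ± 0.24, whereas Wnt5a, at 0.049 ± 0.094, and Wnt9a, at 0.12 ± 0.14, were not called. Wnt7b (ENSMUSG00000022382.15, chr15:85535437-85582473) had a median RQ of 6.97 (range 2.28 to 14.2) at day 8 and a median RQ of 4.66 (range 0.396 to 9.96) later, and its call (log2 fold change -0.81, SE 0.34, adjusted p = 0.0427) was lost when replicate 2, 3 or 4 was left out. Wnt11 was not called (adjusted p = 0.0602) and passed with the replicate block (adjusted p = 0.0418).

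The Frizzled receptors split by member. Fzd4 (ENSMUSG00000049791.4, chr7:89404355-89413134), also the receptor for norrin, had a median RQ of 4.20 (range 3.16 to 4.91) at day 8 and a median RQ of 11.5 (range 5.92 to 19.5) later, without overlap (log2 fold change 1.53, SE 0.15, adjusted p = 1.26e-08). Fzd5 rose by 1.10 ± 0.13 (log2, SE) and Fzd7 by 0.36 ± 0.061, a step that was 0.19 with TMM and 0.064 with total counts, where it was not called (adjusted p = 0.323). Fzd9 (ENSMUSG00000049551.2, chr5:135248938-135251230), whose loss in mice lowers bone formation, fell the most of all members. It had 108, 163, 137 and 137 in WT against 108, 45.4, 51.2 and 69.99 in Het at day 8, and 15.98, 18.5, 19.2 and 16.2 in WT against 23.7, 12.96, 9.77 and 11.3 in Het at day 21 (log2 fold change -2.07, SE 0.21, adjusted p = 3.07e-08). Fzd6 (ENSMUSG00000022297.15, chr15:39006034-39038188) went from a median RQ of 43.9 (range 36.6 to 65.3) to a median RQ of 20.8 (range 17.9 to 31.5) without overlap (log2 fold change -1.10, SE 0.084, adjusted p = 2.86e-10), and Fzd2 (ENSMUSG00000050288.6, chr11:102604396-102608058) from a median RQ of 128 (range 105 to 146) to a median RQ of 96.01 (range 74.9 to 113) (log2 fold change -0.39, SE 0.065, adjusted p = 2.55e-05). Fzd1 was called lower by a smaller step of -0.28 ± 0.083. The call of Fzd8 as higher (log2 fold change 0.24, SE 0.093, adjusted p = 0.0312) turned its direction with total counts, to -0.060.

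LRP co-receptors diverged with time. Lrp5 (ENSMUSG00000024913.16, chr19:3584828-3686564) went from a median RQ of 73.1 (range 53.5 to 85.95) at day 8 to a median RQ of 207 (range 117 to 307) later, without overlap (log2 fold change 1.49, SE 0.13, adjusted p = 4.01e-09). Lrp4 (ENSMUSG00000027253.15, chr2:91457511-91513779), a receptor for sclerostin, went from a median RQ of 79.5 (range 68.95 to 112) to a median RQ of 284 (range 149.5 to 514), also without overlap (log2 fold change 1.75, SE 0.18, adjusted p = 4.43e-08). Lrp6 had 180.2 to 282 at day 8 and 164 to 271 later, and its difference of -0.0013 ± 0.062 was not called with the housekeeping scale, while it was called lower with TMM (-0.18) and total counts (-0.30).

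R-spondin and Lgr genes also moved apart. Rspo3 rose by 1.04 ± 0.14 (log2, SE) and Rspo2 by 0.71 ± 0.15, and Rspo1 was called lower at -0.71 ± 0.30. Lgr6 rose by 1.42 ± 0.43, and Lgr4 (ENSMUSG00000050199.13, chr2:109917647-110014257), the broadly expressed receptor of the group, went from a median RQ of 295 (range 148 to 405) to a median RQ of 223 (range 98.1 to 267) (log2 fold change -0.52, SE 0.14, adjusted p = 0.00359). Of these, Rspo2 and Rspo3 stayed called when any replicate was left out.

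The transcription factors and the feedback gene did not move together. Tcf7 (log2 fold change 1.81, SE 0.17, adjusted p = 5.76e-09), which encodes TCF1, had 17.1, 62.2, 65.8 and 50.3 RQ in WT against 16.8, 25.9, 25.4 and 22.96 in Het at day 8. It had 115, 178, 163 and 149 in WT against 136, 143, 171 and 148 in Het at day 14 and 77.4, 94.3, 108 and 89.4 in WT against 78.4, 103, 101 and 83.4 in Het at day 21, all above every library of day 8. Lef1 (ENSMUSG00000027985.14, chr3:131110471-131224356), another TCF/LEF factor, had 15.4, 10.6, 7.71 and 12.3 in WT against 15.4, 4.35, 5.34 and 9.56 in Het at day 8, 10.05, 5.33, 5.32 and 7.75 in WT against 7.48, 1.64, 3.21 and 2.57 in Het at day 14, and 3.31, 3.92, 3.23 and 3.31 in WT against 2.77, 1.58, 1.91 and 1.29 in Het at day 21 (log2 fold change -1.47, SE 0.23, adjusted p = 1.23e-05). Axin2 (ENSMUSG00000000142.15, chr11:108920349-108950783), the negative-feedback target most used as a readout of the pathway, had 22.7, 21.2, 20.9 and 19.8 in WT against 16.8, 16.1, 17.3 and 14.7 in Het at day 8, 22.4, 19.4, 16.6 and 18.7 in WT against 20.1, 7.08, 19.8 and 18.5 in Het at day 14, and 8.70, 13.1, 12.1 and 10.3 in WT against 10.1, 15.4, 12.1 and 11.9 in Het at day 21 (log2 fold change -0.36, SE 0.13, adjusted p = 0.021). Tcf7 thus stood higher later while Lef1 and Axin2 stood lower, with stages overlapping for both. Exons of Gm11670 lie on the other strand over Axin2 and held 845 counts in all against 8511 for Axin2, and the strand setting of the counting is not given in the sources used here.

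**Figure D3:**
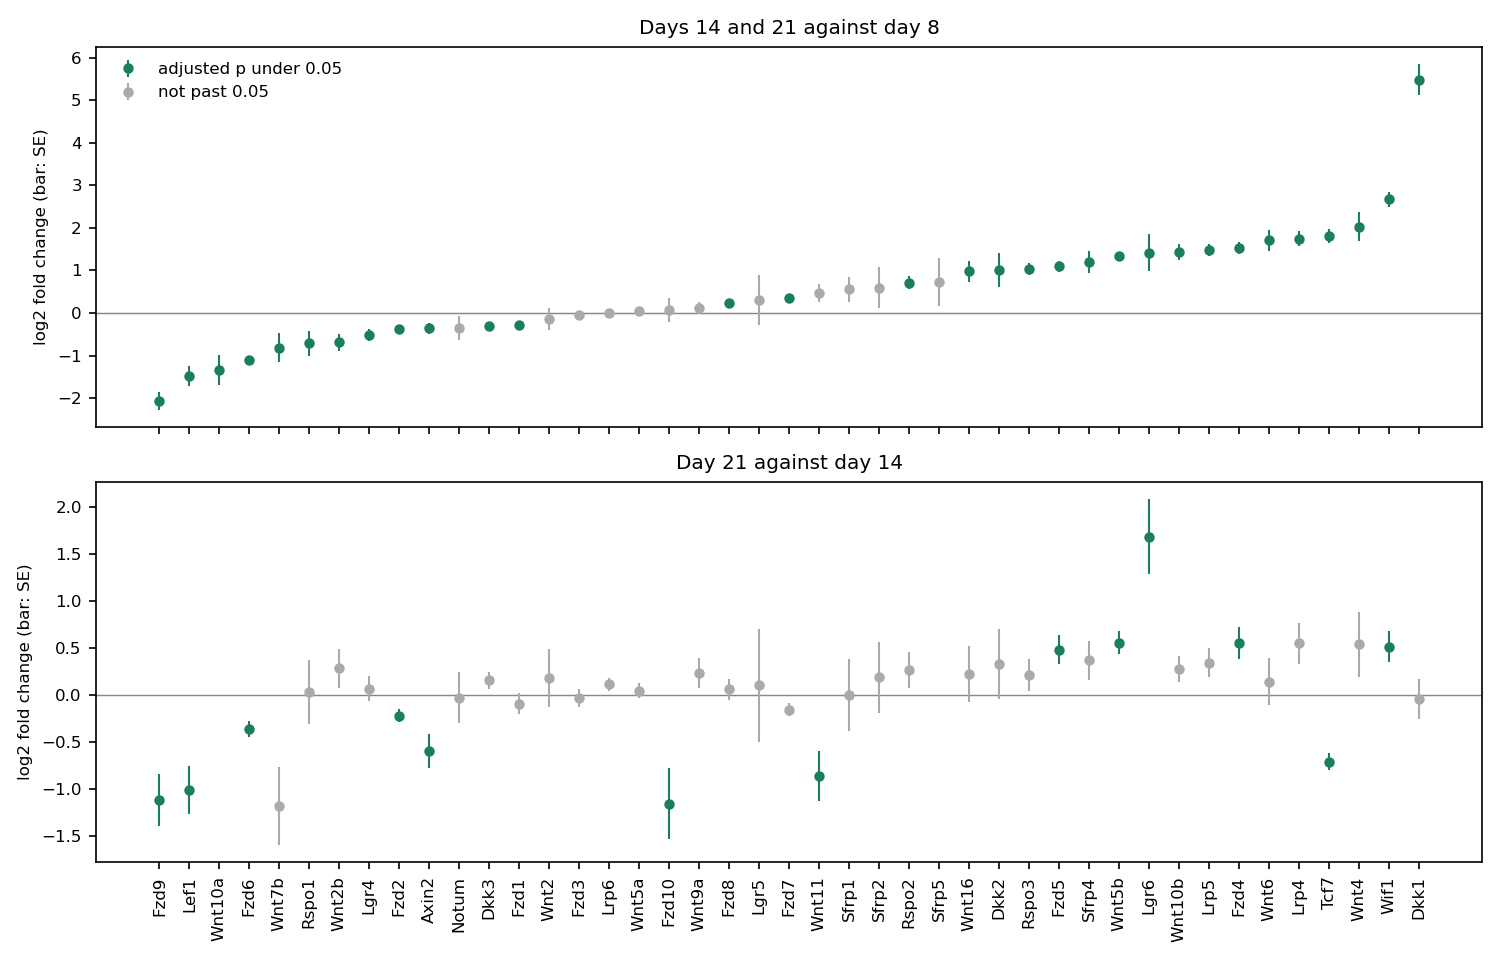
Log2 fold change with its SE of the tested members for days 14 and 21 against day 8 (upper panel, 43 members) and for day 21 against day 14 (lower panel, 41 members), in the order of the upper panel. Green points passed an adjusted p of 0.05 and grey points did not. Dkk1 and Wif1 stand at the right end of the upper panel and Fzd9 and Lef1 at the left end, and Tcf7 lies above 0 in the upper panel and below 0 in the lower.

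Between day 14 and day 21 fewer members changed. Of 41 tested, 5 were called higher at day 21 (12.2%, against 14.2% of all 18857 genes) and 8 lower (19.5%, against 6.41% of all genes). Lgr6 rose most (log2 fold change 1.68, SE 0.40, adjusted p = 0.00713), and Wnt5b, Fzd4, Fzd5 and Wif1 rose by 0.56, 0.56, 0.48 and 0.52 on the log2 scale. Tcf7 fell (log2 fold change -0.71, SE 0.093, adjusted p = 0.000138), as did Axin2 (log2 fold change -0.60, SE 0.18, adjusted p = 0.0256) and Lef1 (log2 fold change -1.01, SE 0.26, adjusted p = 0.0105). Fzd9, Fzd10, Wnt11, Fzd6 and Fzd2 were the other members called lower, at -1.12, -1.16, -0.86, -0.37 and -0.22. Tcf7 stayed called when any single replicate was left out. With TMM 4 were higher (against 12.1% of all genes) and 9 lower (against 11.6%). Without replicate 3 the counts were 1 higher (6.25% of all genes) and 3 lower (2.59%), without replicate 4 they were 3 (6.75%) and 1 (2.12%), and without replicate 1 they were 7 (18.2%) and 5 (11.1%). The replicate block gave 7 higher (16.7% of all genes) and 9 lower (7.72%), and added Sfrp4 (0.37) and Wnt10b (0.30) as higher and Wnt7b (-1.25) as lower. WT libraries alone gave 7 higher (9.17% of all genes) and 7 lower (5.59%), and Het libraries alone gave none (0.309% of all genes) and 1 (0.0651%), so that calls were fewer in Het over all genes, and whether the genotypes differed in this step was not tested.

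Het OBs held less mRNA of several Wnt receptors and co-receptors than WT OBs at days 14 and 21. Of 41 members tested, 11 were called lower in Het (26.8%, against 9.76% of all 18857 genes tested) and 1 higher (2.44%, against 7.86% of all genes). The median member was at -0.28 on the log2 scale and the median gene at -0.048. The 11 were Fzd4, Fzd5, Fzd7, Fzd8, Lrp5, Lrp6, Lgr4, Rspo3, Wif1, Wnt5a and Lef1, and the 1 was Lgr5. Over all genes the split of calls depends on the scale, and with TMM 12 members were lower (29.3%, against 8.16% of all genes) and 1 higher (against 13.3%), and with total counts 8 were lower (19.5%, against 5.57%) and 1 higher (against 17.7%). With the replicate number as a block, 17 were called lower (15.1% of all genes) and 1 higher (9.81% of all genes), the added ones being Fzd3, Fzd9, Lrp4, Lgr6, Notum and Wnt4. Leaving out replicate 1 gave 22 lower (53.7%, against 22.4% of all genes) and 2 higher (4.88%, against 17.4%), leaving out replicate 2 left Lgr4 as the single call, as lower (0.929% of all genes lower and 0.781% higher). Leaving out replicate 3 left none (0.716% of all genes lower and 0.629% higher), and leaving out replicate 4 left none (0.336% and 0.393%), so that calls fell over all genes too. At an unadjusted p under 0.05, 12 and 11 of 42 members were then lower, and 1 higher. Over all genes 4399 of 19549 and 3342 of 19319 passed that level, in either direction. In the same comparison 11 of 12 macrophage markers were called higher in Het, and 5 of 8 osteoblast and 1 of 6 chondrocyte markers lower. At day 21 the chondrocyte sum of replicates 2 to 4 was 3574 to 5810.1 in WT and 1166 to 1400.1 in Het, and the macrophage sum 6623 to 7668 and 12128 to 19437. The osteoblast sum of these libraries was 181215 to 192552 in WT and 118229 to 152764 in Het.

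Among the co-receptors, Lrp5 had 139.9, 224, 242 and 193 RQ in WT against 161, 220.3, 133 and 117 in Het at day 14, and 271, 297, 307 and 273 in WT against 235, 176, 178 and 118 in Het at day 21. The genotypes overlapped at day 14 and did not at day 21, and the difference over both days was called (log2 fold change -0.52, SE 0.15, adjusted p = 0.0287). Lrp6 (ENSMUSG00000030201.15, chr6:134446476-134566965) had 252, 242, 248 and 252 in WT against 230.2, 164, 210.4 and 185 in Het at day 14, and 231, 271, 270.0 and 252 in WT against 237, 234, 222 and 202 in Het at day 21, with every Het library of day 14 below every WT library (log2 fold change -0.26, SE 0.066, adjusted p = 0.0134). Its call was lost with total counts (log2 fold change -0.17, adjusted p = 0.0909). Lrp4 was at 514, 391, 446 and 451 in WT against 510.1, 212, 220.0 and 149.5 in Het at day 21. Its replicate 1 libraries were alike and its other Het libraries all lower, and it was called with the replicate block (log2 fold change -0.67, SE 0.18, adjusted p = 0.0155) and by DESeq2's Wald test with no block, but not by edgeR with no block and all replicates (adjusted p = 0.0829).

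Of the Frizzled receptors Fzd4, Fzd5, Fzd7 and Fzd8 were called lower. Fzd4 had 8.95, 12.1, 14.3 and 12.8 RQ in WT against 8.39, 9.76, 8.06 and 6.48 in Het at day 14, and 19.1, 19.5, 19.2 and 17.8 in WT against 18.4, 10.3, 10.9 and 5.92 in Het at day 21 (log2 fold change -0.66, SE 0.17, adjusted p = 0.0164). Fzd5 (ENSMUSG00000045005.9, chr1:64730558-64737751) had 92.6, 163, 173 and 142 in WT against 95.3, 133, 100.4 and 85.2 in Het at day 14, and 203, 219.5, 215 and 222 in WT against 204, 117, 126 and 89.9 in Het at day 21 (log2 fold change -0.58, SE 0.16, adjusted p = 0.0192). In both receptors the replicate 1 libraries of the genotypes lay close to each other. Exons of Gm38058 overlap Fzd5 on the other strand, with 8013 counts in all against 62095 for Fzd5. Fzd7 (ENSMUSG00000041075.8, chr1:59482424-59486955) had 119, 135, 145 and 139 in WT against 114, 101, 118 and 97.8 in Het at day 14, and 117, 123, 127 and 126 in WT against 103, 104, 96.1 and 74.6 in Het at day 21, so that all 8 Het libraries were below all 8 WT libraries but for replicate 3 of day 14 against replicate 1 of WT at day 21 (log2 fold change -0.35, SE 0.068, adjusted p = 0.00413). Fzd8 had 101, 113, 125 and 112 in WT against 112, 78.6, 81.4 and 74.7 in Het at day 14, and 103, 139, 120.1 and 117 in WT against 115, 88.99, 87.7 and 61.4 in Het at day 21 (log2 fold change -0.41, SE 0.11, adjusted p = 0.0194). In Fzd8 the Het library of replicate 1 was above its WT counterpart at both days and the other 6 Het libraries were below theirs. Fzd1 (-0.11 ± 0.11), Fzd2 (-0.13 ± 0.068), Fzd6 (0.13 ± 0.086) and Fzd10 (-0.42 ± 0.37) were not called, with or without the block.

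Lgr5 and Lgr4, which bind the same R-spondins, lay on opposite sides. Lgr5 (ENSMUSG00000020140.15, chr10:115450311-115587780), a stem cell marker in several epithelia, had 2.83, 2.77, 4.09 and 3.06 RQ in WT against 1.25, 14.3, 39.7 and 39.7 in Het at day 14, and 1.70, 5.02, 2.70 and 2.64 in WT against 0.198, 43.6, 35.03 and 32.9 in Het at day 21. It was higher in 6 of 6 Het libraries of replicates 2 to 4 than in any WT library and lower than WT in both of replicate 1 (log2 fold change 3.05, SE 0.64, adjusted p = 0.00614). Lgr4 had 267, 228, 234 and 259 in WT against 185, 98.1, 150.4 and 130.2 in Het at day 14, and 258, 219, 239 and 238 in WT against 229, 143, 150.4 and 121 in Het at day 21. Lgr4 was lower in Het in every replicate at both days and had the smallest p of the family (log2 fold change -0.69, SE 0.13, adjusted p = 0.00354). Per kb Lgr4 remained far more abundant than Lgr5 in Het, at 27.3 against 2.72 at day 21. Lgr6 was at -1.10 ± 0.40 (log2, SE; adjusted p = 0.0643) and was called with the block (log2 fold change -1.43, SE 0.31, adjusted p = 0.00625). Rspo3 (ENSMUSG00000019880.10, chr10:29452416-29535867) had 64.2, 34.6, 47.7 and 48.9 in WT against 46.5, 19.2, 41.2 and 36.7 in Het at day 14, and 53.2, 72.3, 59.3 and 58.5 in WT against 45.4, 43.01, 41.9 and 24.6 in Het at day 21, with no overlap at day 21 (log2 fold change -0.55, SE 0.17, adjusted p = 0.0362). Its call was lost with total counts (adjusted p = 0.0678), and Gm48159, on the other strand over its exons, held 3620 counts against 19386. Rspo2, at 0.34 ± 0.19, was not called.

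Of the antagonists only Wif1 was called with all replicates and no block, among the 8 tested. It had 253, 231, 227 and 231 RQ in WT against 175, 168, 136 and 117 in Het at day 14, and 457, 277, 327 and 346 in WT against 351, 146, 161 and 157 in Het at day 21 (log2 fold change -0.73, SE 0.17, adjusted p = 0.00889). Every Het library was below the WT library of its number, in replicate 1 too. Notum was at -0.52 ± 0.27 (adjusted p = 0.194) and was called with the block (log2 fold change -0.60, SE 0.13, adjusted p = 0.00535). Dkk1 was at -0.45 ± 0.21 (adjusted p = 0.152), with 126 ± 13.9 (SD, n = 4) in WT and 90.7 ± 13.5 in Het at day 21. Without replicate 1 Dkk1 (-0.51 ± 0.15) and Dkk3 (-0.28 ± 0.097) were called lower and Dkk2 higher (0.90 ± 0.14).

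Among ligands Wnt5a was the single call. It had 77.3, 63.6, 65.99 and 70.4 RQ in WT against 63.6, 48.04, 59.9 and 53.96 in Het at day 14, and 65.7, 72.02, 70.1 and 72.04 in WT against 74.4, 58.7, 56.2 and 48.95 in Het at day 21 (log2 fold change -0.27, SE 0.078, adjusted p = 0.0269). Its replicate 1 library of Het at day 21 was above every WT library of that day, and it was not called with total counts (adjusted p = 0.0744). Wnt10b, the most abundant ligand, was at 0.0060 ± 0.14 (log2, SE) and was not called. Wnt4 had 7.94, 6.61, 8.04 and 7.21 in WT against 8.41, 2.58, 2.90 and 2.22 in Het at day 21, so that replicate 1 and the other Het libraries lay on opposite sides of WT, and it was called with the block (log2 fold change -1.06, SE 0.29, adjusted p = 0.0162).

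Of the factors, Lef1 was lower in Het (log2 fold change -0.93, SE 0.26, adjusted p = 0.0217), and its per-library values are those given above. All 8 Het libraries were below the WT library of the same number and day. Axin2 was at -0.037 ± 0.18 and Tcf7 at -0.015 ± 0.093, and neither was called in any setting of this comparison. The Het library of day 14 replicate 2 held the lowest Axin2 value of its group, 7.08 RQ, and without that library 12 members were called lower (8.41% of all genes) and 2 higher (6.81%), with Dkk1 added as lower and Rspo2 as higher.

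**Figure D4:**
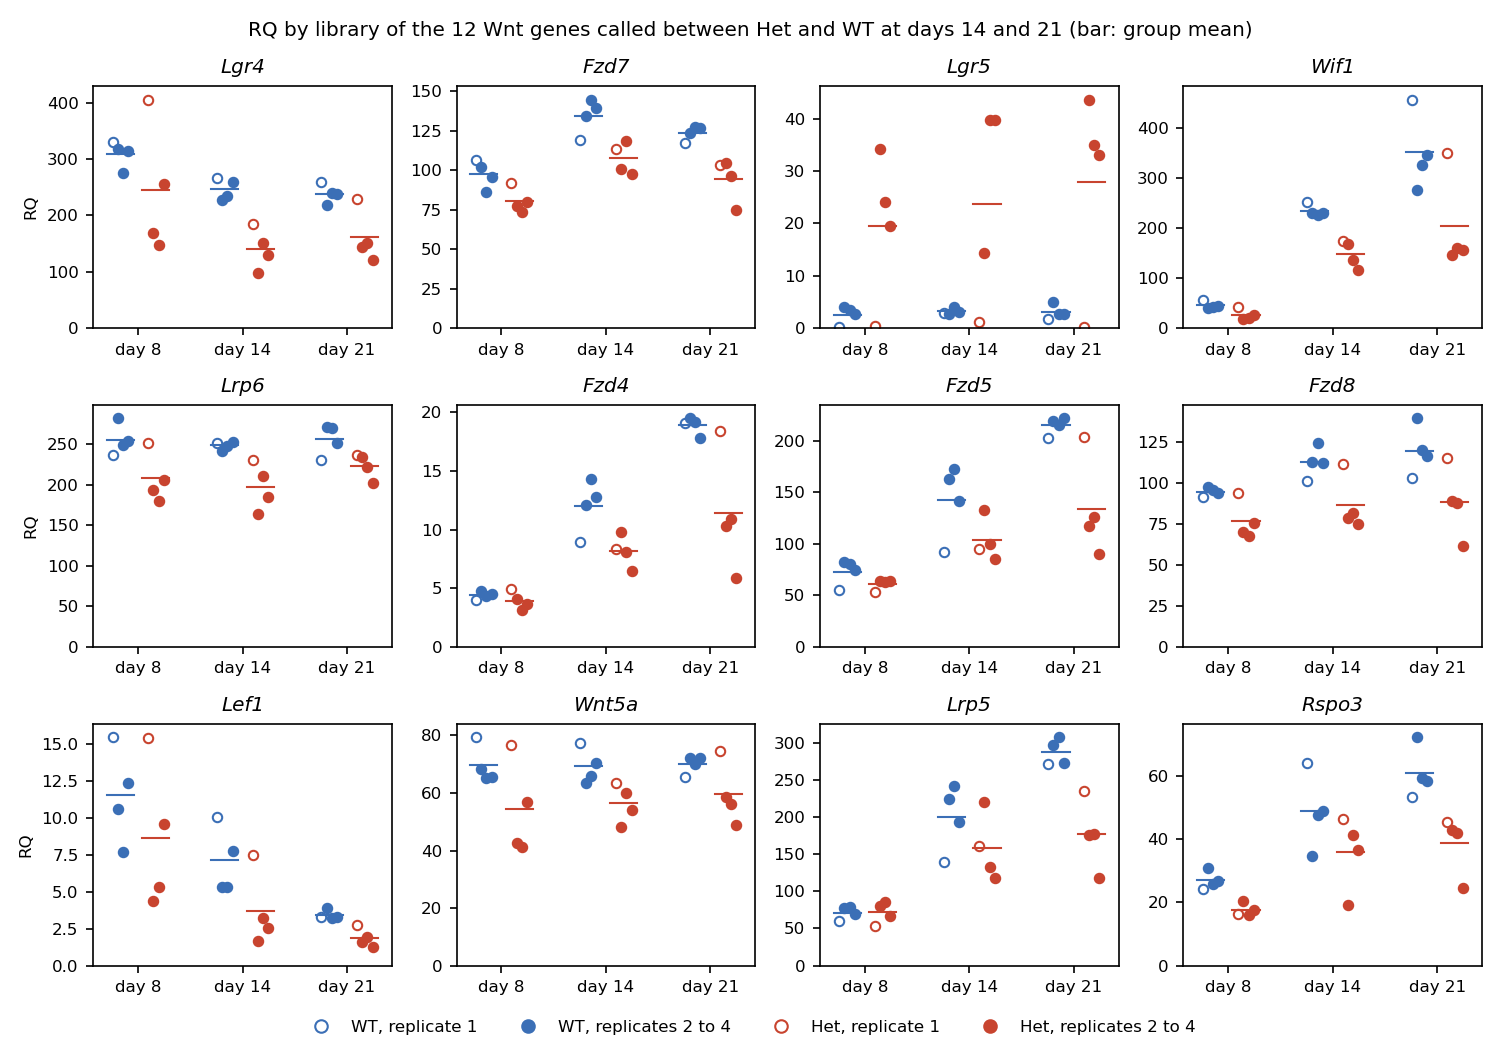
RQ by library and day of the 12 members called between Het and WT at days 14 and 21, with group means as bars. Blue is WT and red is Het, open circles are replicate 1 and filled circles replicates 2 to 4. Lgr5 is high in the filled red circles alone, and in Fzd4, Fzd5, Fzd8 and Lrp5 at day 21 the filled red circles lie below the open red circle.

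The size of the Het effect differed between replicate 1 and the other replicates for some members. A fit of the 16 libraries of days 14 and 21 that let the Het effect differ between replicate 1 and replicates 2 to 4, chosen after seeing the data, called 7 of 43 members tested. The Het effect in replicates 2 to 4 was higher than in replicate 1 for 3 (2.6% of all 20819 genes tested) and lower for 4 (1.82% of all genes). Lgr5 differed by 5.05 ± 0.87 (log2, SE; adjusted p = 0.00758), Dkk2 by 2.731 ± 0.43 (adjusted p = 0.00482) and Wnt16 by 2.26 ± 0.48 (adjusted p = 0.0188). Wnt4 differed by -2.09 ± 0.34 (adjusted p = 0.00552), Lgr6 by -1.95 ± 0.43 (adjusted p = 0.0218), Lrp4 by -1.18 ± 0.26 (adjusted p = 0.0193) and Fzd8 by -0.77 ± 0.16 (adjusted p = 0.0171). Lrp5 (-0.65 ± 0.32, adjusted p = 0.271), Lgr4 (-0.49 ± 0.18, adjusted p = 0.137) and Wif1 (-0.42 ± 0.23, adjusted p = 0.329) were not called. The replicate 1 side of this fit rests on 2 libraries per genotype. Of the 24 members called at days 14 and 21 without replicate 1, 12 had the same direction in replicate 1. In 22 of the 24 the change was smaller in replicate 1, with a median size of 0.16 on the log2 scale against 0.72. At day 8, 14 of 24 had the same direction and 22 were smaller. These members were picked by their values in replicates 2 to 4, which favours larger changes there. Over the same libraries the chondrocyte and macrophage sums differed between genotypes in replicates 2 to 4 and much less in replicate 1. The osteoblast sums also differed in replicates 2 to 4 and less in replicate 1. The part of these cell types was not tested.

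**Figure D5:**
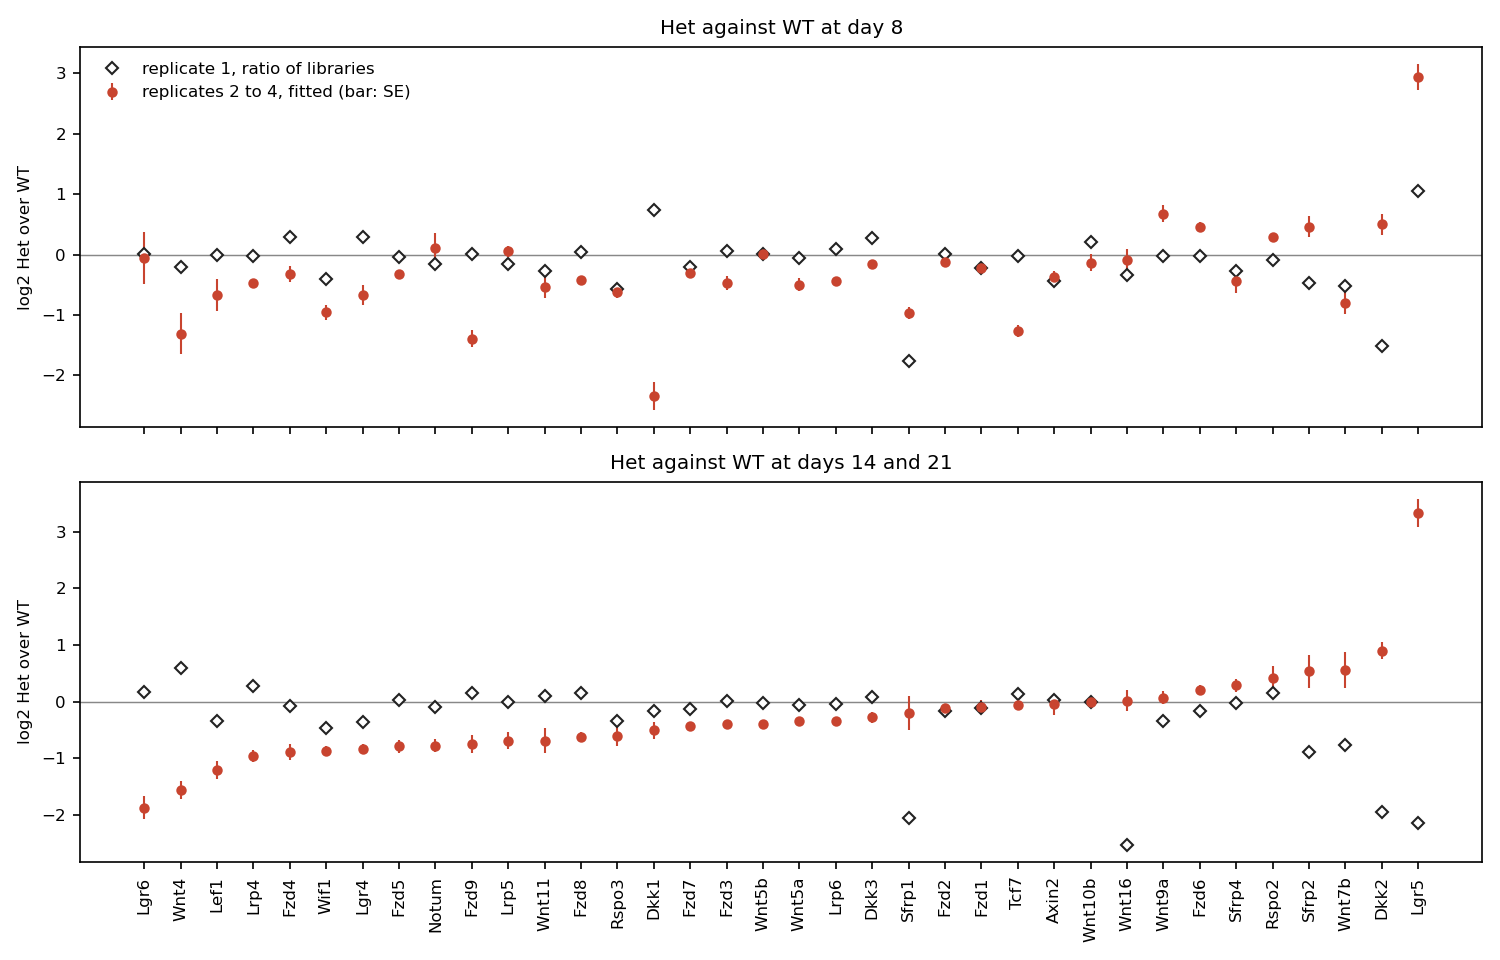
Log2 ratio of Het to WT at day 8 (upper panel) and at days 14 and 21 (lower panel) for the 36 members with a mean of at least 50 counts, in the order of the lower panel. Red points with SE bars are the fit to replicates 2 to 4, and open diamonds the ratio of the replicate 1 libraries. Lgr5 at the right and Lgr6 and Wnt4 at the left of the lower panel have their diamonds on the other side of 0.

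At day 8 no member was called between Het and WT with all 4 replicates, and no gene was (0% of 18222). At an unadjusted p under 0.05, edgeR gave 17 of 42 members, 15 lower and 2 higher, and 1817 genes in all, and DESeq2's Wald test called 5 members lower, Axin2, Fzd9, Fzd10, Rspo3 and Sfrp1 (11.9%, against 1.32% of all genes), and none higher (1.05%). With the replicate block 8 members were called lower (0.982% of all genes) and 1 higher (0.582%), and without replicate 1 there were 19 lower (45.2%, against 14.2% of all genes) and 5 higher (11.9%, against 4.55%). Tcf7 and Axin2 were among the calls with the block, and Lef1 was called in no setting at day 8 (-0.42 ± 0.39, log2 and SE, adjusted p = 0.788). Tcf7 was lower in replicates 2 to 4 and alike in replicate 1, at 17.1 and 16.8 RQ (with the block, log2 fold change -1.03, SE 0.18, adjusted p = 0.0391). Axin2 was lower in Het in each replicate, without overlap (with the block, log2 fold change -0.38, SE 0.072, adjusted p = 0.0475). Dkk1 was lower in replicates 2 to 4 and at 1 and 2 counts in replicate 1 (with the block, log2 fold change -2.28, SE 0.20, adjusted p = 0.0125).

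Secreted modulators differed too. Sfrp1 had 68.9, 43.8, 37.97 and 44.8 RQ in WT against 20.3, 24.5, 18.9 and 21.5 in Het at day 8, without overlap and in replicate 1 as well (with the block, log2 fold change -1.15, SE 0.13, adjusted p = 0.0207). Rspo3 had 24.4, 30.8, 25.9 and 26.9 in WT against 16.4, 20.5, 16.1 and 17.7 in Het, again without overlap (with the block, log2 fold change -0.61, SE 0.065, adjusted p = 0.0174). Wif1 had 56.4, 41.1, 42.05 and 44.2 in WT against 42.5, 18.9, 19.6 and 27.00 in Het, where replicate 1 of Het overlapped WT (with the block, log2 fold change -0.84, SE 0.12, adjusted p = 0.03). Lgr5 had 0.171, 3.98, 3.47 and 2.76 in WT against 0.356, 34.1, 24.1 and 19.6 in Het (2 and 5 counts in replicate 1), and was higher in each Het library than in WT of the same number (with the block, log2 fold change 2.89, SE 0.14, adjusted p = 0.000492). Wnt7b (-0.76) and Fzd10 (-0.95) completed the calls with the block. Without replicate 1, Fzd9 was lower as well (-1.39 ± 0.14), with 163, 137 and 137 in WT and 45.4, 51.2 and 69.99 in Het. Lrp5 was not called at day 8, with 59.8, 77.3, 78.6 and 68.8 in WT against 53.5, 79.7, 85.95 and 67.02 in Het (log2 fold change 0.0090 ± 0.15, SE). In replicates 2 to 4 the chondrocyte sum at day 8 was 20461 to 25509 in WT and 5516 to 16938 in Het, and the macrophage sum 249.6 to 304 and 791 to 1099. The osteoblast sum of these libraries was 42059 to 50749.5 in WT and 33404.7 to 40949.3 in Het.

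Whether the Het effect itself changed between day 8 and the later days was tested in 1 fit of all 24 libraries. None of 43 members was called (0.171% of all 20434 genes), by edgeR or by DESeq2's Wald test. Beside 1138 of all genes, 5 members had an unadjusted p under 0.05 in edgeR. Tcf7 had the smallest p of them, with an effect of -1.10 at day 8, -0.015 at days 14 and 21 and a difference of 1.09 ± 0.31 (adjusted p = 0.336). With the replicate block Tcf7 was called (log2 fold change 1.05, SE 0.22, adjusted p = 0.0416), as the single member higher (0.308% of all genes) and with none lower (0.0196%). Dkk1 differed by 1.80 ± 0.65 (adjusted p = 0.579) and by 1.83 without replicate 1 (adjusted p = 0.0108). Without replicate 1, Tcf7 and Dkk1 were called higher (4.76%, against 3.93% of all genes) and Lgr6 and Wnt9a lower (4.76%, against 0.794%). Lrp5, whose effect was called at the later days and not at day 8, differed by -0.53 ± 0.25 (adjusted p = 0.88), so a difference between stages is not shown for it.

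Other genes of the pathway were read from lists of known components. Their counts are read beside the 9.76% of all genes called lower and 7.86% called higher in Het. At days 14 and 21, 8 of 28 genes of the beta-catenin route inside the cell were called lower in Het and 2 higher. Among them Tle2, a Groucho co-repressor, was at -0.53 ± 0.089 (log2, SE), Tle4, of the same family, at 0.41 ± 0.093, Ctnnb1, which encodes beta-catenin, at -0.36 ± 0.094, and Pygo1, a beta-catenin co-activator, at -0.34 ± 0.092. Of 15 receptors and polarity genes of the routes without beta-catenin, 4 were lower and none higher, with the Wnt5a receptor Ror1 at -0.62 ± 0.20, Daam2 at -0.42 ± 0.075, Prickle2 at -0.40 ± 0.068 and Daam1 at -0.15 ± 0.049. Of 10 genes tested from the list of other antagonists, 3 were lower and none higher. They were the antagonists Sostdc1, at -1.50 ± 0.43, and Frzb, an Sfrp relative abundant in cartilage, at -1.37 ± 0.35, and Cthrc1, which is no antagonist by its known role but a secreted protein that stabilises Wnt and receptor complexes of the polarity route, at -0.28 ± 0.083. Of 13 genes widely used as beta-catenin targets, Id2 was lower (-0.34 ± 0.11) and Jun higher (0.27 ± 0.087). Neither Porcn nor Wls, which the cell needs to secrete Wnt proteins, was called. The medians of the 5 lists in that order were -0.11, -0.077, -0.36, 0.12 and -0.18, beside -0.048 over all genes. At day 8 no gene of the 5 lists was called.

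With culture time the same lists changed in both directions, beside the 40.9% of all genes called higher and 17.4% called lower. Of the 10 other antagonists 5 rose and 1 fell, with Sost, the osteocyte gene for sclerostin, at 10.59 ± 0.59 (log2, SE, against a day 8 level with no count in 4 of 8 libraries), Frzb at 3.85 ± 0.37, Draxin at -2.27 ± 0.13 and Rnf43, a ligase that removes Frizzled, at 0.91 ± 0.21. Of the beta-catenin route 9 rose and 5 fell, with Tcf7l2 at 0.75 ± 0.069, Tle1 at -0.73 ± 0.042, Ctnnb1 at 0.67 ± 0.081 and Tle3 at 0.52 ± 0.045. Of the routes without beta-catenin 5 rose and 6 fell, with Celsr2 at 1.61 ± 0.15, Celsr1 at 1.11 ± 0.33, Reck at 0.85 ± 0.094 and Prickle2 at -0.49 ± 0.074, and of the target list 5 rose and 5 fell, with Bambi at 2.28 ± 0.11, Ccn4 at 1.64 ± 0.079, Tnfrsf11b, which encodes osteoprotegerin, at -1.37 ± 0.28, and Fosl1 at -1.18 ± 0.21. Porcn rose (1.00 ± 0.087) and Wls was not called. From day 14 to day 21 the lists gave 5 rises and 9 falls, beside 14.2% of all genes called higher and 6.41% called lower. Among them Myc fell (-0.66 ± 0.094) and Sost rose (1.13 ± 0.33).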

How the data were processed

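Counts per gene were deposited by the authors for 24 libraries, 1 table per library, with a length per gene, in bases, in the same deposited tables. The submitters' processing notes name cutadapt 2.5, STAR 2.73a, featureCounts 1.6.4 and the mouse build mm10, and the strand setting is not given in the sources used here. No deposited count was altered. Each gene's count was tested with edgeR 4.0.16 in R 4.3.3 (limma 3.58.1), by glmQLFit and glmQLFTest after filterByExpr, with library scales from the geometric mean of the counts of Sdha, Mrfap1, Actb and Actg1, as in the study's methods. P-values were adjusted by Benjamini-Hochberg over all genes tested, and SEs are the absolute log2 fold change over the square root of F. The scripts were tested on simulated data.

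Het and WT were compared at days 14 and 21 with day as a covariate, and at day 8, and the change of that effect and the change with culture time were contrasts of the 6 group means. Day 21 was compared with day 14 with genotype as a covariate. Other settings were TMM, DESeq2 1.42.0 size factors and total counts as scales, DESeq2's Wald test, other filters, the replicate number as a block, each replicate left out, and single days or genotypes. The replicate numbers come from the sample titles. Same-numbered WT and Het libraries of a day deviated together from their group means in all 12 pairs (correlation 0.193 to 0.713, median 0.453). The median over 36 pairs of unlike number was -0.124. Replicate 1 stood apart in depth and marker sums, which alone can raise correlations of same number and lower those of unlike number. The check therefore cannot tell whether the other numbers pair WT with Het libraries. The block and the comparisons by number take that pairing from the titles. The fit without the library of Het at day 14 replicate 2 and the test of replicate 1 against the others were chosen after seeing the data. No 2 libraries of a group were alike within sampling noise (lowest chi-square per degree of freedom 4.78 over 36 pairs).

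The members, the 5 pathway lists and the marker lists were chosen with earlier results of these data known. All values were given for up to 12 members with the smallest p among those called between genotypes and for Lrp5, Axin2, Lef1 and Tcf7, and levels for up to 8 rises and 8 falls with the largest change with culture time among members averaging at least 50 counts. Members outside that rule were named after their values were seen. Up to 4 called genes with the largest change were named per pathway list. Wisp1 and Wisp2 are listed in the files under other symbols, Ccn4 and Ccn5. RefSeq promoters span 250 bases before to 50 after each start.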

Additional observations from a re-analysis of the deposited data

Results flagged for a closer look

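Among the 4 libraries of each group, 7 of 138 sets of values over 23 members held a library that stood apart from the other 3 by Dixon's test, and chance gives about 1 in 20. Wif1 stood apart in replicate 1 of WT at day 14, at 252.78 RQ against 227 to 231, and in replicate 1 of Het at day 21, at 350.73 RQ against 146 to 161. Wnt4 stood at 8.4145 RQ in replicate 1 of Het at day 21 against 2.22 to 2.90, and Fzd5 at 53.794 RQ in replicate 1 of Het at day 8 against 63.0 to 64.0. Axin2 stood at 7.0751 RQ in replicate 2 of Het at day 14 against 18.5 to 20.1. Lef1 stood at 3.9196 RQ in replicate 2 of WT at day 21 against 3.23 to 3.31, and Rspo3 at 24.55 RQ in replicate 4 of Het at day 21 against 41.9 to 45.4. Of the 7 values, 4 belong to replicate 1.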

How the results depend on the processing

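For Het against WT at days 14 and 21, all 12 members called kept their direction in the 14 other settings. Leaving out a replicate or a library gave 0 to 22 members lower and 0 to 2 higher, and day 14 alone or day 21 alone gave 0 lower and 0 higher, with fewer libraries in each. Over all genes day 14 alone gave 18 lower and 16 higher of 18368, and day 21 alone 103 lower and 265 higher of 18682. Total counts as the scale left 8 lower. At day 8 leaving out a replicate gave 0 to 19 lower and 0 to 5 higher, with 19 and 5 without replicate 1, and DESeq2's Wald test gave 5 lower. For the difference between stages it gave 0 to 2 in each direction, beside 0 to 772 of all genes higher and 0 to 156 lower. With culture time leaving out a replicate gave 16 to 21 higher and 6 to 11 lower, beside 6796 to 9874 of all genes higher and 2671 to 3901 lower. With total counts Fzd8 reversed to a log2 fold change of -0.060. Over all genes 8351 were higher and 3560 lower with culture time, against 5601 and 6692 with TMM. From day 14 to day 21 leaving out a replicate gave 1 to 7 higher and 1 to 10 lower, beside 1221 to 3461 of all genes higher and 410 to 2099 lower. The 10 lower came without replicate 2, where 685 of all 19590 genes were lower and 1673 higher. Het libraries alone gave 0 higher and 1 lower, beside 57 and 12 of all 18437 genes. The cause of these changes was not tested.

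With the replicate number as a block, 17 members were lower and 1 higher at days 14 and 21, 8 lower and 1 higher at day 8, 1 higher for the difference between stages (Tcf7), 21 higher and 13 lower with culture time, and 7 higher and 9 lower from day 14 to day 21. The block changed no call of a named member other than those given beside the results, and it removed none.

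Depth limits the 10 members averaging under 5 counts, and intervals from 1 count cover counting error only. The G610C substitution, the cell types behind each value and the experiment behind each replicate number were not measured.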

Other observations

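Lists of markers of other cell types gave these counts between Het and WT at days 14 and 21, beside 7.86% of all genes called higher and 9.76% called lower. Of the osteocyte list 0 of 5 tested were called, of the osteoclast list 1 higher and 1 lower of 6, and of the smooth muscle list 1 higher of 5. The endothelium list gave 1 higher of 3, the fibroblast list 1 higher of 4, and the adipocyte list 0 of 2.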
